A study of Mus musculus with 6 samples.

Results

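Sod1, Sod2, Prdx1, Txnrd1, Hmox1, Selenop and Mt1 are 7 genes of antioxidant defence and metal binding, measured here in the livers of 3 male mice. Every spot on the 2 kinds of expression array used, A and B, whose only annotated gene symbol was 1 of these 7 was taken, which gave 8 probes, 4 on each kind, among 9663 probes of 7151 named genes. Sod2 had 2 probes and each of the other genes had 1. The mice were an ad libitum mouse killed at 17 days (1st age group), an ad libitum mouse of 174 days and, on calorie restriction, a mouse of 177 days (both 2nd age group). Each group was thus a single animal, with both array kinds hybridised to total RNA from the same liver. No strain or genotype was given in the labels, and the age of 17 days is written so on the label only. Its unit may be wrong and could not be checked, and in another unit the age comparison would span a different interval. Of the 8 probes, 7 passed a brightness filter (mean above the 50th percentile of the array kind), and all 7 genes kept 1 probe.

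Cells make superoxide and hydrogen peroxide as by-products of respiration, and the liver, with its dense mitochondria and its detoxification enzymes, carries high amounts of the enzymes that remove them. Superoxide dismutases turn superoxide into hydrogen peroxide, which peroxiredoxins then reduce, and thioredoxin with its reductase restores the oxidised peroxiredoxins. Heme oxygenase removes heme and releases its iron, metallothioneins bind zinc and copper through their cysteines, and the liver secretes selenoprotein P, which carries selenium to other organs. Many of these genes can be induced by the transcription factor NRF2 through antioxidant response elements, and metallothionein genes by the zinc-sensing factor MTF1 through metal response elements.

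Promoter windows from RefSeq (GRCm38.p6), 250 bases before to 50 after an annotated start, were found for 6 of the 7 genes, with 10 windows in all. There was no window for Hmox1, which was therefore not searched. The windows that hold a core of either element are shown. The core TGACNNNGC was searched on both strands and occurred in 1 window each of Sod1, Prdx1 and Txnrd1, against 12.4% of 32851 windows of all genes. In each of these genes the match lay on the minus strand and is capitalised as read on the plus strand. Its first base stood 56 bases before the start in Sod1, 133 in Prdx1 and 92 in Txnrd1, whose other 2 windows held none.
Sod1, chr16:90220512-90220811, plus strand: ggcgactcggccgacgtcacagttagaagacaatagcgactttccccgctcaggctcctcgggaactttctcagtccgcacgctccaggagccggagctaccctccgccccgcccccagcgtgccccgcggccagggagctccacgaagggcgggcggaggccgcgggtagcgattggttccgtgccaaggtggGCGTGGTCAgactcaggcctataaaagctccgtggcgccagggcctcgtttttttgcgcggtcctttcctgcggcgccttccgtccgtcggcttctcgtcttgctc
Prdx1, chr4:116685349-116685648, plus strand: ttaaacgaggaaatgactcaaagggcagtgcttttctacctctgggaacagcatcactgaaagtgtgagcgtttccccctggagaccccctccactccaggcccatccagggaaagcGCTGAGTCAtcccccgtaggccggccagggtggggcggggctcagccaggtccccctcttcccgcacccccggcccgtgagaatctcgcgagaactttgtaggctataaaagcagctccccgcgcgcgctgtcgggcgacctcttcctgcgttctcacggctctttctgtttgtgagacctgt
Txnrd1, chr10:82858956-82859255, plus strand: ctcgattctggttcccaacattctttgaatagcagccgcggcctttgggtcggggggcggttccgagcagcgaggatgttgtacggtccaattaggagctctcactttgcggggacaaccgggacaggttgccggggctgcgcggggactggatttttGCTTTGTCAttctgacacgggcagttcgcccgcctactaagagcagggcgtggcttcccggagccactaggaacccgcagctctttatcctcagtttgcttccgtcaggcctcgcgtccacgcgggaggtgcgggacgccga
The Mt1 window held 3 plus-strand matches to the metal response core TGCGCNC or TGCACNC, searched on both strands, which are capitalised below. The first began 23 bases before the start and the others after it. Of all windows 25.7% held at least 1 match and 1.97% at least 3, whereas the 9 windows of the other genes searched held none.
Mt1, chr8:94178839-94179138, plus strand: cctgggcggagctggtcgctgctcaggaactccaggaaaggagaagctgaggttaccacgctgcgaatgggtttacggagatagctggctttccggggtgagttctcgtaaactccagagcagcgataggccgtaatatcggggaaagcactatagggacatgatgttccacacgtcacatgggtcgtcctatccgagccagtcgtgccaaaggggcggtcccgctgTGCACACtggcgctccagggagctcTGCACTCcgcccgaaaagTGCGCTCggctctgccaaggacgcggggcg
The letters TATAAA of a TATA box (both strands) began 37 bases before the start in Sod1, 29 in Prdx1 and 10 in 1 window of Selenop. They occurred in 13.6% of all windows. The Sod2 window held none, but 4 GC boxes (GGGCGG, both strands), a number reached by 5.49% of all windows. The Sod1 window also held 4. These letters describe the windows only.

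The arrays of the 174-day mouse were the dimmest, with median intensities of 35.8 and 60.8 (A and B), against 333 to 402.5 in the other mice. Deposited intensities were therefore compared after quantile normalization of log2 values over the 3 arrays of a kind, and a log2 difference of 1 is 2-fold. Without any scaling all 7 genes read lower in the 174-day mouse than in both others, as did most genes (median of all -2.83 log2 against the 17-day mouse). With 1 mouse per group there is no error between animals and no test. The disagreement between probes was measured on the 483 genes with exactly 2 probes above the brightness filter. The differences of their 2 probes lay a median of 0.31 log2 apart between the 174- and 17-day mice (90th percentile 0.82). They lay 0.52 apart (1.21) between the calorie-restricted and the 174-day mouse and 0.41 (0.99) between the calorie-restricted and the 17-day mouse. The 2 probes had the same sign in 54.9%, 52.2% and 52.2% of these genes, where unrelated signs would give 50%. None of the 7 genes differed by more than the 90th percentile in any of the 3 comparisons. By more than the median differed 6, 3 and 3 of them. Over all 3865 genes the median size of a difference was 0.21, 0.37 and 0.28 log2. The share of all genes past these cut-offs was not counted, so the 7 cannot be set against it.

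**Figure D1:**
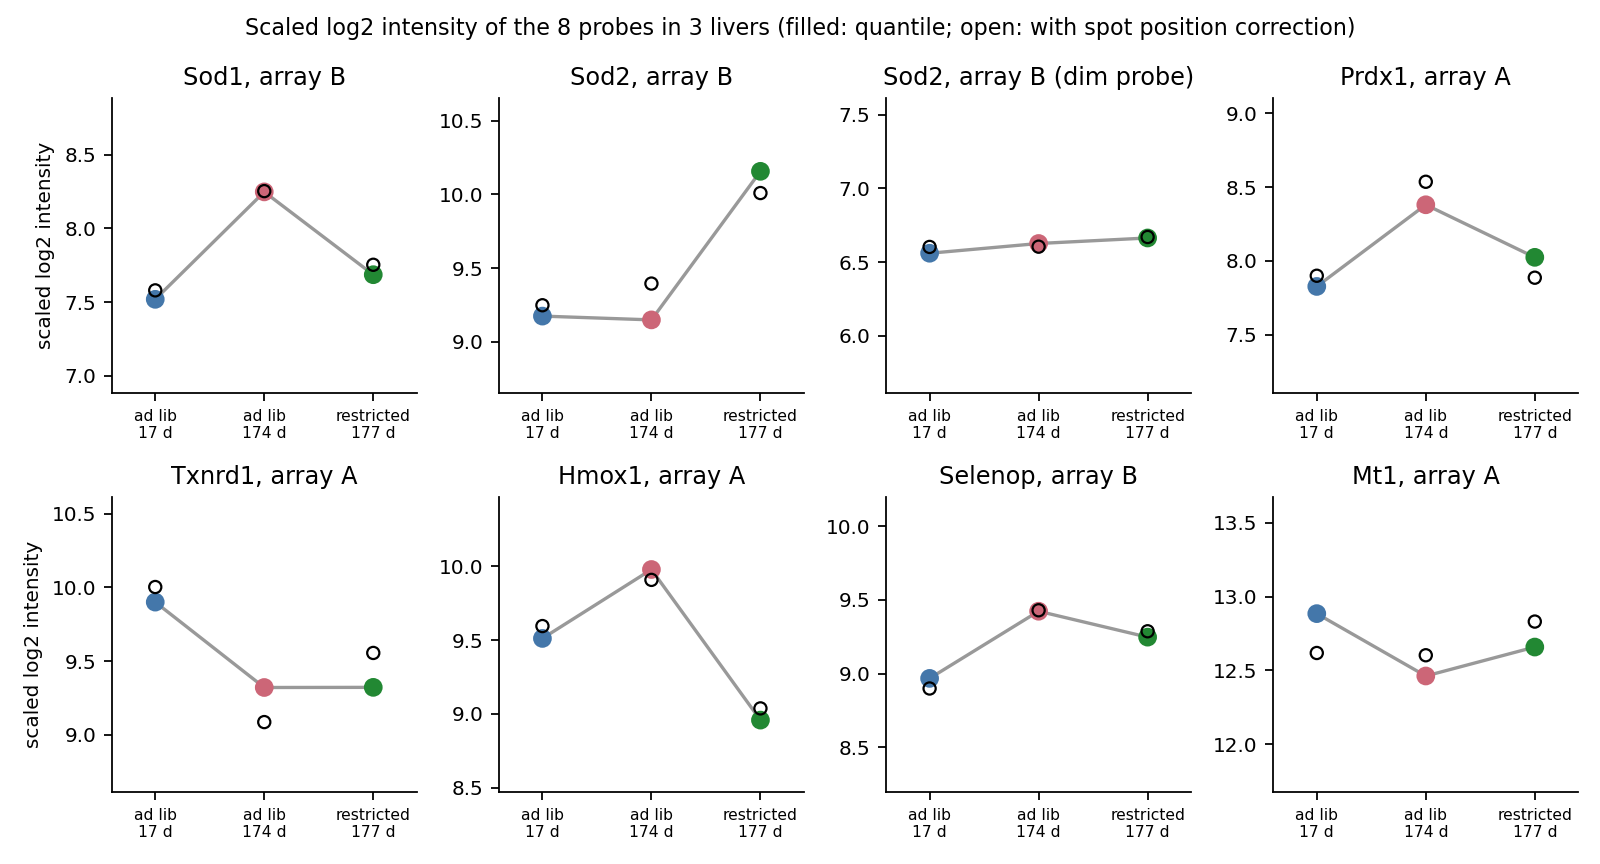
Scaled log2 intensity (vertical axis, each panel spanning the same range of log2 units) of the 8 probes in the 17-day, 174-day and calorie-restricted mouse (horizontal axis), 1 point per mouse, with filled points after quantile normalization and open points after a further correction for spot position. Sod1, Prdx1, Hmox1 and Selenop were highest in the 174-day mouse, Txnrd1 and Mt1 in the 17-day mouse by the filled points, and the brighter Sod2 probe in the calorie-restricted mouse.

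Sod1, the copper- and zinc-dependent superoxide dismutase of the cytosol (gene number 20655), was highest in the ad libitum mouse of 174 days. Its probe on array B read 368 at 17 days, 95.4 at 174 days and 339 under calorie restriction. Against the median of the same array these were 0.915, 1.57 and 1.02 times, so that only the 174-day mouse stood clearly above its array's median. After scaling, Sod1 was 0.73 log2 (1.66-fold) higher at 174 than at 17 days, which placed it at the 98.1st percentile of 3865 genes. It was 0.56 lower in the calorie-restricted than in the 174-day mouse, with 0.17 between the calorie-restricted and the 17-day mouse. The 20 spots nearest to it in spot order, called its neighbours here, had median differences of 0.35, -0.23 and 0.17 in the same comparisons. The probe lay at only the 53.4th percentile of brightness, just inside the filter.

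Sod2, the manganese enzyme of the mitochondrial matrix (gene number 20656), differed from Sod1 in being highest under calorie restriction on both of its probes, but by very different amounts. The brighter probe, on array B, read 1116 at 17 days, 190.0 at 174 days and 1575 under calorie restriction, or 2.77, 3.12 and 4.73 times the array median. The ad libitum mice were alike on this probe after scaling (-0.03 log2 between them), and the calorie-restricted mouse was 1.01 above the 174-day mouse (2.01-fold, 97.8th percentile of all genes) and 0.98 above the 17-day mouse (99.4th percentile). The dimmer probe, also on array B, read 191, 29.3 and 169 at the 28.7th percentile of brightness, below the filter. It was near 0.48 times the array median at both ad libitum ages (0.475 and 0.482) and at 0.507 under calorie restriction, with differences of 0.07, 0.04 and 0.10. The probes thus disagreed by 0.97 log2 in the diet comparison and by 0.88 between the calorie-restricted and 17-day mice. After correction for spot position the brighter probe was at 0.61 and 0.76. Which probe follows the Sod2 transcript was not tested.

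Prdx1, a peroxiredoxin of the cytosol that reduces hydrogen peroxide (gene number 18477), had the same order of mice as Sod1. Its array A probe read 479.8, 72.8 and 575 in the 17-day, 174-day and calorie-restricted mouse, which is 1.32, 2.03 and 1.53 times the array median. The scaled difference was 0.55 (1.47-fold) between 174 and 17 days, at the 95.6th percentile of all genes. Under calorie restriction Prdx1 was 0.36 below the 174-day mouse, at the 29.0th percentile, and 0.20 above the 17-day mouse. The last of these was -0.01 after correction for spot position, while the age difference was 0.64 and the diet difference -0.65.

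Txnrd1, the selenocysteine-containing reductase that keeps cytosolic thioredoxin reduced (gene number 50493), had the lowest age difference of the 7. Its array A probe read 1825 at 17 days, 150.0 at 174 days and 1389 under calorie restriction, 5.01, 4.19 and 3.70 times the array median. Txnrd1 was lower in both older mice than in the 17-day mouse, by 0.58 log2 in each (1.49-fold), and differed by less than 0.01 between them. Both older mice were set against the same 17-day array, so the pair of differences is not independent. After correction for spot position the differences from the 17-day mouse were -0.92 for the 174-day and -0.45 for the calorie-restricted mouse, and the calorie-restricted mouse was then 0.47 above the 174-day mouse.

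Hmox1, the inducible heme oxygenase (gene number 15368), had the widest range across the mice together with Sod2. Its array A probe read 1412 at 17 days, 255 at 174 days and 1096 under calorie restriction. These were 3.88, 7.11 and 2.92 times the array median, highest in the 174-day and lowest in the calorie-restricted mouse. The scaled value was 0.47 higher at 174 than at 17 days and 1.02 lower under calorie restriction than at 174 days (2.03-fold, 4.24th percentile of all genes). It was also 0.55 lower under calorie restriction than at 17 days. The 20 neighbouring spots had a median of 0.44 in the diet comparison, opposite in sign to Hmox1, and after correction for spot position the gene was at -0.87. The Prdx1 probe lies 9 spots from that of Hmox1 in spot order, so their neighbours overlap. Those of Prdx1 had a median of 0.33 in the diet comparison, also opposite in sign to the gene.

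Selenop, the selenium carrier of plasma made mainly by hepatocytes (gene number 20363), varied less. Its array B probe read 973, 238 and 933, or 2.42, 3.92 and 2.80 times the array median at 17 days, at 174 days and under calorie restriction. It was 0.46 log2 higher at 174 than at 17 days (92.5th percentile) and 0.18 lower under calorie restriction than at 174 days (39.6th percentile). The calorie-restricted mouse was 0.28 above the 17-day mouse. Correction for spot position gave 0.53, -0.14 and 0.39.

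Mt1, a metallothionein that binds zinc and copper (gene number 17748), was the brightest of the 8 probes, brighter than 99.5% of the spots of array A. It read 15399 at 17 days, 1763 at 174 days and 9813 under calorie restriction. Relative to the array median these were 42.3, 49.2 and 26.2 times, highest in the 174-day mouse, whereas after quantile normalization the 17-day mouse was highest. The scaled differences were -0.42 between 174 and 17 days, 0.20 between calorie restriction and 174 days and -0.23 between calorie restriction and 17 days. The direction depended on the scaling: with each array centred on its median the same differences were 0.22, -0.91 and -0.69, and with correction for spot position -0.02, 0.23 and 0.21. The 20 neighbouring spots were at -0.30, 0.10 and -0.15. Mt2, its neighbour in the metallothionein family, was measured by a probe of array A near the middle of the brightness range (53.0th percentile) that read 341, 39.1 and 485. It was 0.24, 0.21 and 0.46 higher in the 3 comparisons, and -0.13, 0.49 and 0.36 after correction for spot position, so the age differences of Mt1 and Mt2 had opposite signs after quantile normalization.

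The first comparison, of 174 with 17 days on the ad libitum diet, asks how the genes differed with age. Sod1, Prdx1, Hmox1 and Selenop had higher values in the older mouse and Sod2, Mt1 and Txnrd1 lower ones (with median centring Sod2 was at 0.17 and Mt1 at 0.22), with a median of 0.46 log2 against -0.03 over all 3865 genes. None of the 7 was 2-fold higher or lower, where 0.724% of all genes were 2-fold higher and 0.44% lower. Sod1 and Prdx1 lay above the 95th percentile of all genes (0.53 log2) and Txnrd1 close to the 5th (-0.58). Of the 3 genes with the antioxidant core, Sod1 and Prdx1 were higher and Txnrd1 lower, and whether the core had a part in this was not tested.

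The second comparison, of calorie restriction with ad libitum feeding in the older mice, asks how they differed with diet. Under calorie restriction Sod2 was past 2-fold on the higher side and Hmox1 on the lower side, 1 gene in each direction, where 2.25% of all genes were 2-fold higher and 4.61% lower. Both were close to the threshold (1.01 and -1.02), and neither was past it after correction for spot position. Sod1, Prdx1 and Selenop were lower by less than that, and Mt1 and Txnrd1 were at 0.20 and 0.00. The median of the 7 was -0.18 against -0.04 over all genes. The age and the diet comparison share the 174-day arrays, so the opposite signs of Sod1, Prdx1, Hmox1 and Selenop in them are not separate observations.

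The comparison of the calorie-restricted with the 17-day mouse leaves out the dim 174-day arrays, but differs in both age and diet. Sod2 was 0.98 higher there, rank 24 of 3865 genes from the highest, with Selenop, Prdx1 and Sod1 between 0.17 and 0.28. Txnrd1 (-0.58), Hmox1 (-0.55) and Mt1 (-0.23) were lower. None of the 7 was past 2-fold, where 0.466% of all genes were 2-fold higher and 1.11% lower, and the median of 0.17 stood against -0.09 over all genes. When these arrays were normalized without the 174-day arrays, Sod2 was at 0.88 and Hmox1 at -0.50.

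**Figure D2:**
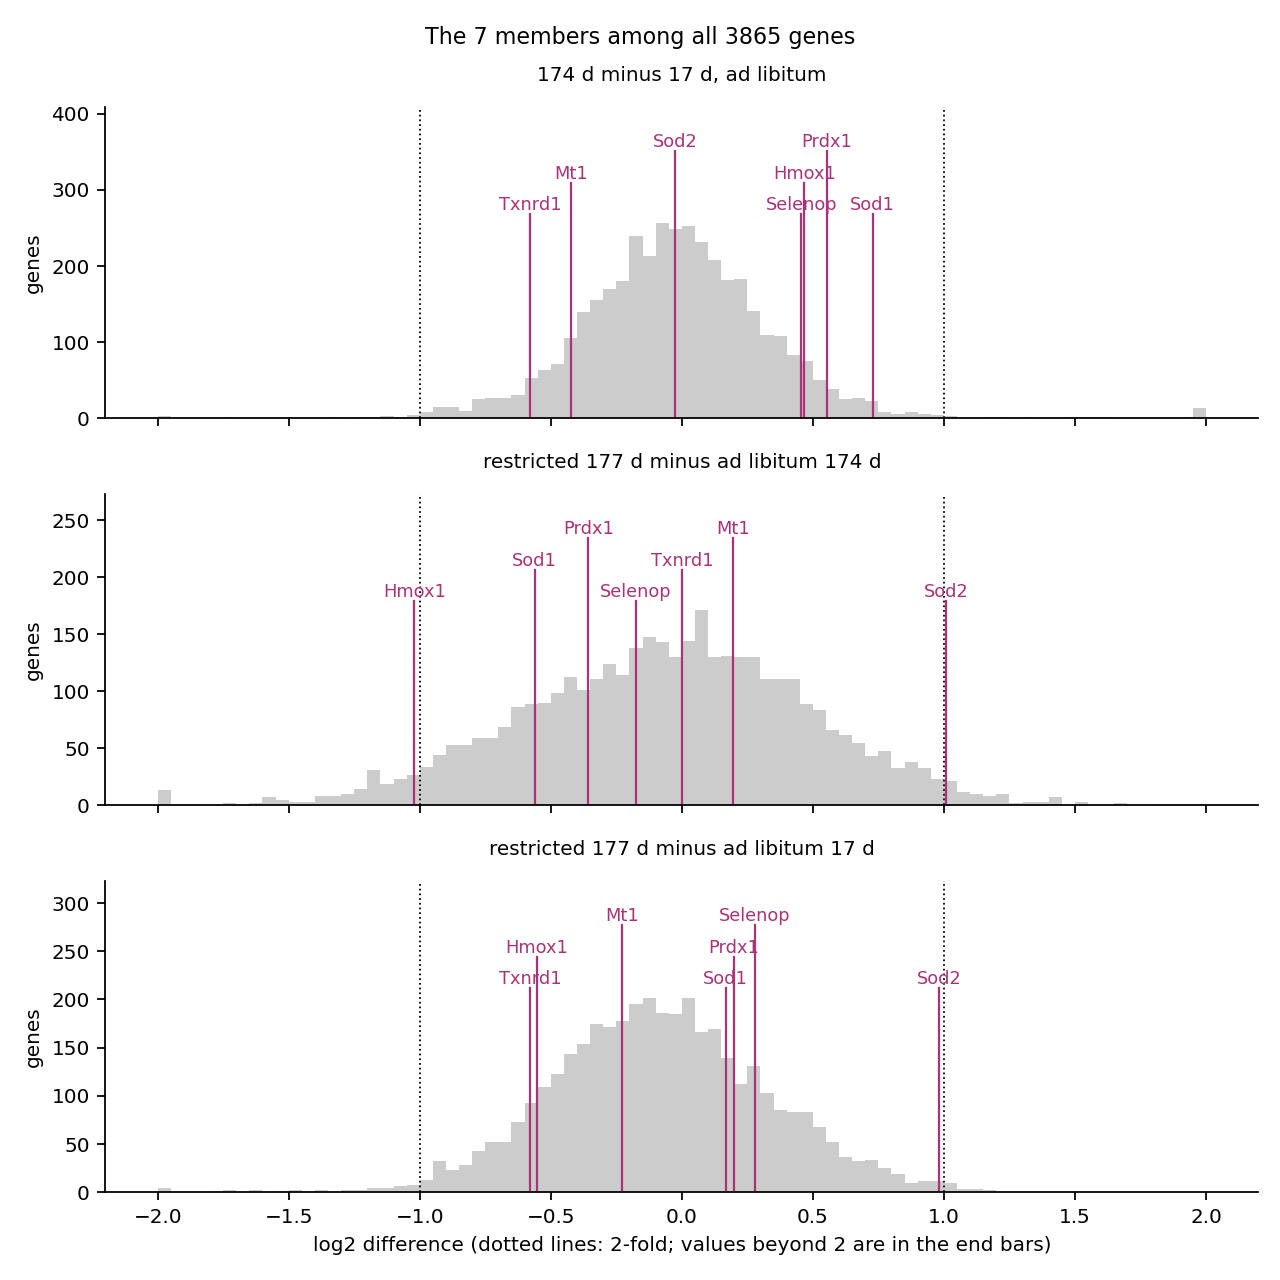
Number of genes (vertical axis) by log2 difference (horizontal axis) in the 3 comparisons, for 3865 genes with a probe above the brightness filter; coloured lines mark the 7 genes and dotted lines 2-fold. Only Sod2 (1.01) and Hmox1 (-1.02) in the middle panel reach the dotted lines.

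Other genes of the same systems were described from fixed lists, counting genes with a probe above the filter. For peroxide removal 5 of 13 genes were measured, Cat (catalase), Prdx1, Prdx2, Prdx4 and Gpx1 (a selenium-dependent glutathione peroxidase). All 5 were above 0 in the age comparison, from 0.05 for Prdx2 to 0.55 for Prdx1 with a median of 0.19. All 5 were below 0 in the diet comparison, from -0.37 for Prdx2 to -0.13 for Cat with a median of -0.33, and none was 2-fold apart. Both comparisons share the arrays of the older ad libitum mouse, so the opposite signs are not separate observations. The comparison of the calorie-restricted with the youngest mouse leaves these arrays out. There 3 were above and 2 below 0, with a median of 0.03. Over all genes 46.3% were above 0 in the age and 47.2% in the diet comparison. After correction for spot position the list medians were 0.07 and -0.09, with Prdx2 at -0.15 and 0.28 and Cat at 0.07 and 0.25. The 2 Prdx4 probes agreed, at 0.21 and 0.16 by age and -0.27 and -0.05 by diet. Probes below the filter were at -0.08 for Prdx3, -0.57 for Gpx3 and 0.05 for Gpx4 by age. By diet they were at -0.21, 0.39 and -0.22.

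In the thioredoxin and glutaredoxin systems 7 of 16 genes were measured. In the age comparison 2 were above and 5 below 0, from -0.58 for Txnrd1 to 0.40 for Msrb3, a methionine sulfoxide reductase. In the diet comparison 6 were below 0 and Txnrd1 was at 0.00, the lowest being Msrb1 (-0.53), another such reductase. With spot position corrected 4 were above and 3 below 0 by diet, the list median was 0.02 instead of -0.25, and Msrb1 was at 0.04. The thioredoxins themselves were at -0.09 (Txn1, cytosolic) and -0.28 (Txn2, mitochondrial) by age and at -0.07 and -0.21 by diet. Ccs, the copper chaperone of Sod1, was at -0.01 by age and 0.18 by diet.

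Selenoprotein genes were measured for 7 of 23 listed, with Selenop highest (0.46) and Txnrd1 lowest (-0.58) by age, 5 above and 2 below 0. By diet 2 were above and 5 below 0, from -0.53 (Msrb1) to 0.44 (Selenoi). After correction for spot position 3 were above and 4 below 0 in each of these comparisons, with medians of -0.05 by age and -0.02 by diet. A list of selenocysteine synthesis and insertion genes, which also held the selenoprotein P receptors, had 5 measured genes, among them the receptor Lrp2 (-0.06 by age, 0.41 by diet). Secisbp2, which binds the selenocysteine insertion element, was lowest by age (-0.45). By diet 4 of the 5 were above 0, up to 0.47 for Sephs1, although the list median of 0.41, which is the Lrp2 value, was -0.05 after correction for spot position.

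Regulators around NRF2 were measured for 5 of 9 genes, and NRF2 itself (Nfe2l2) was at 0.19 by age and 0.10 by diet. Its diet value was -0.21 after correction for spot position, and a dimmer probe below the filter was at 0.30 by age and -0.15 by diet. Bach1, a heme-sensing repressor of Hmox1, stood 0.70 higher at 174 than at 17 days and 1.16 lower under calorie restriction than at 174 days, past 2-fold. A second, dimmer Bach1 probe that did not pass the filter was at -0.33 and 0.31, opposite in sign. The brighter Bach1 probe was below 2-fold once spot position was corrected (0.40 and -0.69). Cul3, the ubiquitin ligase scaffold that with KEAP1 turns NRF2 over, was at 0.05 and -0.99. Its second probe, below the filter, was at 0.25 and -0.35. Among 10 of 30 measured NRF2 target genes, 4 were above and 6 below 0 by age, and Gstp1, a glutathione transferase, was the 1 past 2-fold (-1.20). By diet 6 were above and 4 below 0, with Hmox1 the 1 past 2-fold and Blvrb, a biliverdin reductase, highest (0.30). The list medians were -0.04 and 0.02. In glutathione synthesis and its supply of NADPH only Gss (-0.32 by age, 0.22 by diet) and Me1 (-0.33 and 0.00) of 11 genes were measured. Me1 probes below the filter were at 0.25, 0.02 and 0.34 by age, opposite in sign, and at -0.30, 0.50 and -0.12 by diet. Gsr, also below the filter, was at 0.70 by age and -0.12 by diet.

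Of 8 measured genes of heme breakdown and iron handling (17 listed), Hmox1 was highest by age and lowest by diet. The ferritin chains were close to 0, at 0.11 (Fth1) and 0.03 (Ftl1, 5 probes) by age and at -0.27 and 0.24 by diet. The 4 measured genes of heme synthesis were all below 0 by age, from -0.63 for Cpox to -0.11 for Uros, and all above 0 by diet, from 0.04 for Uros to 0.63 for Alas1, the rate-limiting enzyme. The Fech value is a median of probes at 0.006 and -0.35 by age. Over all genes 46.3% were above 0 by age and 47.2% by diet. The list medians of -0.24 and 0.31 were -0.10 and 0.02 after correction for spot position. Below the filter Alad was opposite in sign, at 0.46 by age and -0.58 by diet. Alas2 was at -0.32 and -0.22, Urod at -0.20 and 0.45 and Ppox at -0.22 and 0.33. The age and diet comparisons share the arrays of the older ad libitum mouse, so the opposite signs are not separate observations. Under calorie restriction against 17 days, which leaves these arrays out, 1 of the 4 was above and 3 below 0, with a median of -0.06. In zinc and copper handling, 12 of 27 genes were measured, with 6 above and 6 below 0 by age and 8 and 4 by diet. The zinc importers Slc39a14 (-1.58) and Slc39a4 (-1.26) were at least 2-fold lower under calorie restriction, as were 4.61% of all genes. The secretory pathway zinc transporter Slc30a7 was highest (0.92). After correction for spot position these 3 transporters were at -0.87, -0.49 and 0.21. Under calorie restriction against 17 days Slc39a14 was at -0.90 and Slc39a4 at -0.49. With spot position corrected these were -0.39 and 0.06. Acute phase genes, which like Mt1 and Sod2 can be induced by inflammation, were measured for only 3 of 25, Fga (-0.10 by age, -0.22 by diet), Cp (-0.38 and 0.39) and Nfkbia (-0.16 and 0.64).

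**Figure D3:**
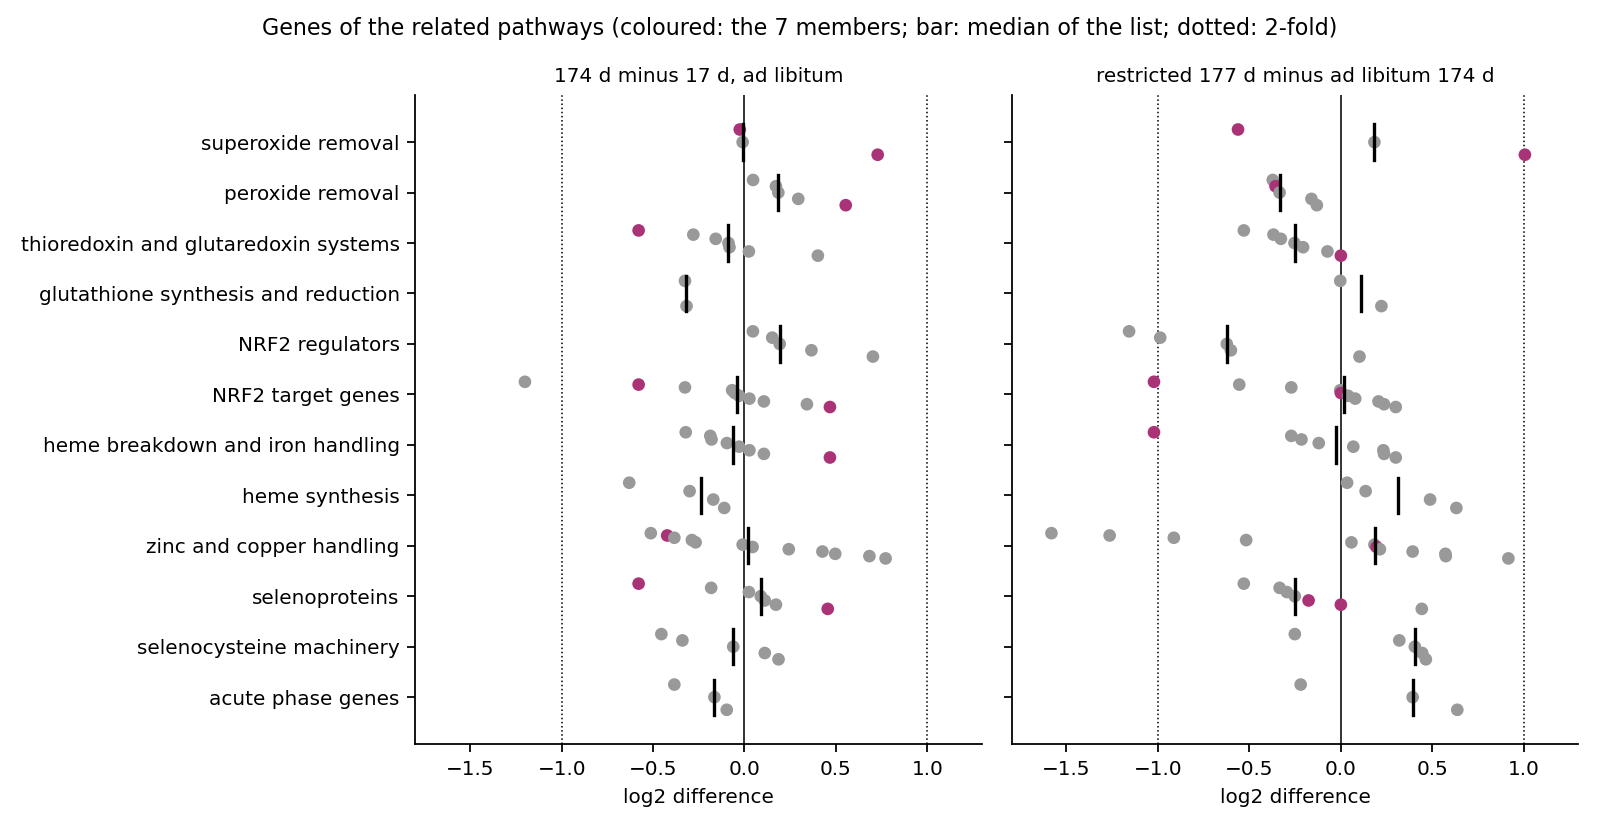
Log2 difference (horizontal axis) of each measured gene of 12 lists (vertical axis) in the age comparison (left) and the diet comparison (right), with the 7 genes coloured, list medians as bars and 2-fold as dotted lines. Peroxide removal genes lie right of 0 on the left and left of 0 on the right, while Sod1 and Sod2 lie on opposite sides of their list in both panels. Both panels share the arrays of the older ad libitum mouse, so opposite signs in them are not separate observations.

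The livers carried hepatocyte RNA, with the Alb probe brighter than 99.9% of the spots of array A and the Apoa1 probe than 99.3%. In whole tissue, fewer cells of a type and less RNA per cell cannot be told apart. Hmox1 is also high in macrophages that take up red cells. Of 18 macrophage markers 4 were measured (Lyz2, C1qb, C1qc and Slc40a1), and their summed scaled intensity was 2304 at 17 days, 1958 at 174 days and 1985 under calorie restriction. The part of macrophage content in the Hmox1 differences was not tested. The 5 of 20 measured hepatocyte markers summed to 24223, 21015 and 33243, highest in the calorie-restricted mouse, where the brighter Sod2 probe was highest too. That order came from Alb alone: without it the sums were 12017, 11025 and 10635, and the median diet difference of the 5 markers was -0.0049. The part of cell makeup in the Sod2 value was not tested. The 4 of 16 measured erythroid markers summed to 11459, 10250 and 11922, the 5 of 11 stellate cell markers to 3647, 3073 and 3303, and the 2 of 7 cholangiocyte markers to 531, 585 and 436. Pecam1, the 1 endothelial marker of 12 that was measured, read 1097, 903 and 818 on this scale.

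The gene whose 3 scaled values, centred on their mean, lay closest to those of each member was Dpy19l1 for Sod1, Bcat1 for Sod2, Mbnl1 for Prdx1, Rdh11 for Txnrd1, Rhou for Hmox1, Kcnh3 for Selenop and Ovgp1 for Mt1. The Euclidean distances over the 3 mice ran from 0.0052 log2 for Ovgp1 to 0.047 for Bcat1. With 3 values, likeness was common: from 6 genes (Sod2) to 101 genes (Mt1) lay within 0.1 log2 of a member. Each of these nearest genes rested on 1 probe.

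**Figure D4:**
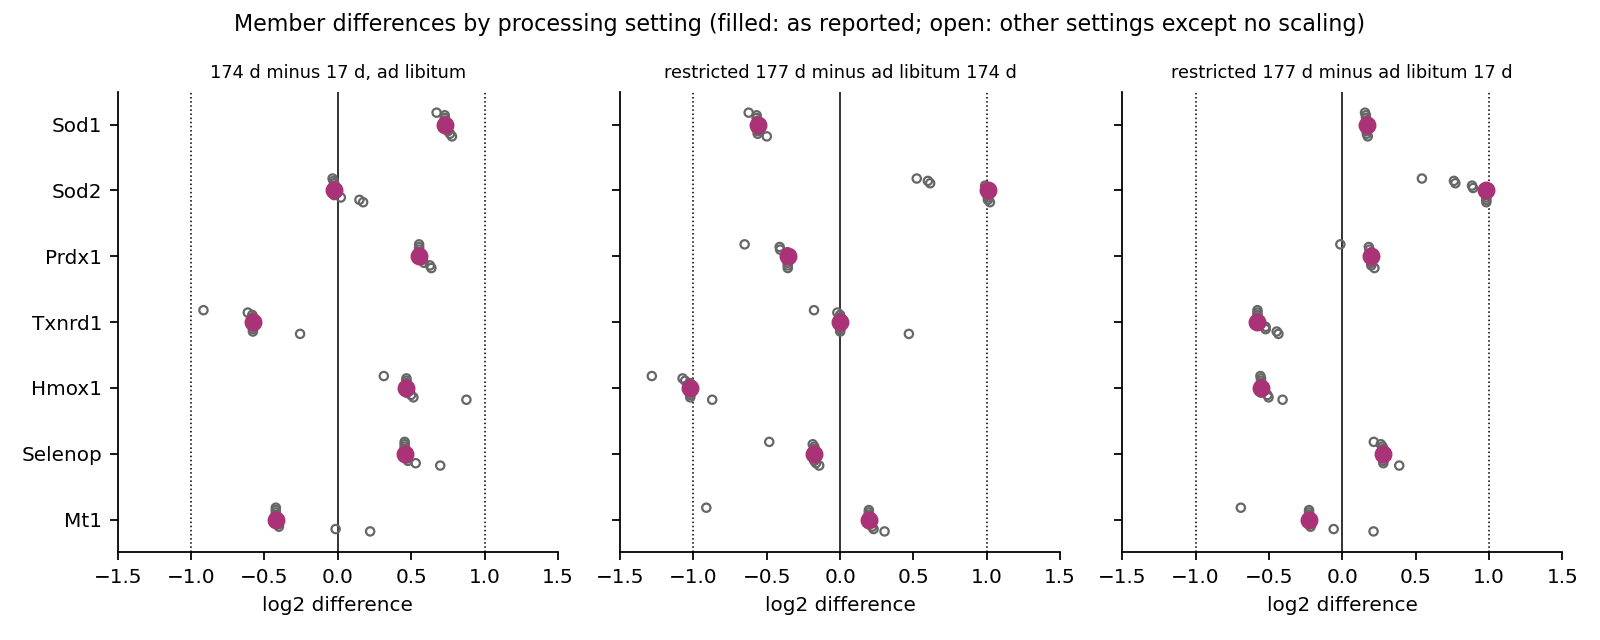
Log2 differences (horizontal axis) of the 7 genes (vertical axis) in the 3 comparisons, with the reported value filled and the other processing settings open; values without any scaling are left out. Sod1 lay between 0.67 and 0.78 in the age comparison, but with 1 probe most of these settings could not move it. Mt1 crossed 0 in all 3 comparisons, and the Sod2 value under calorie restriction against 174 days ran down to 0.52.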

How the data were processed

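The deposited values are spot intensity on a linear scale, and what the authors did to make them (label chemistry, background, scaling) is not given in the sources used here. Of 16896 spots, 9663 had 1 gene symbol in GEO's platform annotation, 436 had several and 6797 had none, and only the first were named, with 9641 matched by gene number to RefSeq (GRCm38.p6) and 0 symbols changed. No column was left without a mouse (0). For each array a floor was set at its 5th percentile, then log2 was taken and the 3 arrays of each kind were brought to a common distribution (quantile normalization). A gene took the median of its probes above the 50th percentile of mean level, and 3865 genes were compared, with 2-fold (1 log2) as threshold. No test was possible with 1 mouse per group, and the number of arrays limits the precision. The position correction took out the median deviation by block (16 blocks, each of 528 spots in a row) and by place in the block, since the layout was not given. The named genes are the 7 members, the list genes that were 2-fold apart, highest or lowest, and the nearest pattern of each member; other list genes and the dim probes were named after their values were seen. Members, lists and alternatives were chosen with earlier results of these data known, and 2 alternatives were added after the values were seen (quantile normalization over the 2 mice compared, and the floor after scaling). The scaling and summary steps were tested on simulated data. Python 3.11.15, numpy 2.4.6, pandas 2.3.3, statsmodels 0.14.6 and matplotlib 3.10.9 were used.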

Additional observations from a re-analysis of the deposited data

How the results depend on the processing

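In the diet comparison the number of the 7 genes at least 2-fold higher was 1 (Sod2). It was 0 with median centring, loess, no brightness filter, correction for spot position or array A alone (which has no Sod2 probe). Without scaling it was 7, where 98.9% of all genes were 2-fold higher. The number at least 2-fold lower was 1, and it was 0 without scaling, on array B alone (which has no Hmox1 probe) or with correction for spot position. In the age comparison 0 of the 7 were 2-fold lower, but 7 without scaling, where 99.7% of all genes were 2-fold lower. On the higher side 0 were past 2-fold, but 1 (Sod1) at a threshold of 1.5-fold, which 3.70% of all genes passed. Between the calorie-restricted and 17-day mice 1 (Sod2) was past 1.5-fold higher, with 5.49% of all genes. Without scaling the dim 174-day arrays moved the median of all genes to -2.83 by age and 2.57 by diet, and Hmox1 was at 2.11 by diet, below that median. Median centring moved the medians to 0.21 and -0.31, and 613 genes were 2-fold lower by diet against 178. Of all genes past 2-fold, the lower share by diet was 92.5% against 67.2%, and by age 18.7% against 37.8%. Relative to these medians Hmox1 was at -0.98 by diet, Sod2 at 0.90 and Sod1 at 0.57 by age. Close to them were Prdx1 by diet (-0.10) and Mt1 by age (0.01). Apart from no scaling, the settings run left Sod1, Prdx1, Hmox1 and Selenop above 0 by age and below 0 by diet wherever they had a probe. Each of these genes has 1 probe, so the filter, brightest-probe, threshold and single-array settings could not change its value. The floor settings also left it unchanged. Only median centring, loess, correction for spot position and quantile normalization over the 2 mice compared gave other values. Txnrd1 was -0.18 by diet with median centring. It was 0.47 with correction for spot position.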
